A study of Mus musculus with 37 samples.

Results

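Serpinb1a, Serpinb6a, Serpinb6b, Serpinb9 and Serpinb9b, 5 genes of the clade B serpin family, were followed in all 37 RNA-seq libraries of uterine natural killer (uNK) cells. They were chosen by name, as 5 of the 53700 Ensembl genes counted in each library, with earlier results of these data known. The cells were sorted from the uterus of pregnant C57BL6 mice at gestation day 9.5 to 10.5, as live CD45+ NKp46+ cells lacking CD3, CD4, CD8 and high CD11b. In wild-type (WT) mice, 9 libraries held uneducated cells without Ly49C/I and NKG2A, 9 held NKG2A+ cells and 6 held Ly49C/I+ cells. In mice labelled NKG2A KO, 8 libraries held uneducated cells and 5 held Ly49C/I+ cells. No animal was treated, and cells with both receptors were not collected. The sources used here do not state the age of the pregnant mice, the NKG2A KO allele or whether a library came from 1 mouse, so p-values measure the spread between these libraries.

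Clade B serpins are protease inhibitors that stay inside the cell, where the target protease cuts a reactive loop and is trapped in a covalent complex. Cytotoxic lymphocytes store granzymes with perforin in granules, and cytosolic serpins protect them from granzymes that leak. Serpinb9 inhibits granzyme B, Serpinb6b inhibits granzyme A, and Serpinb9b is reported to inhibit granzyme M. Serpinb6a and Serpinb1a inhibit cathepsin G, and Serpinb1a also inhibits neutrophil elastase and proteinase 3. Education is the tuning of NK cells by inhibitory receptors such as Ly49C, Ly49I and NKG2A that bind self MHC class I.

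Between 13287163 and 18875033 reads were counted on genes per library (median 17273311). Levels are given as CPM, read counts scaled to library size, after correction by the trimmed mean of M values (TMM). Klrc1, which encodes NKG2A, lay between 494 and 759.8 CPM in the 9 NKG2A+ libraries and between 0.766 and 13.8 CPM in the other 28, WT and NKG2A KO alike, all sorted as NKG2A- cells, so it does not tell the genotypes apart. Klra9, which encodes Ly49I, was at 464 CPM or more in all 11 Ly49C/I+ libraries and at 123 CPM or less elsewhere. Klra3, which encodes Ly49C, went against the sort label, with 55.3 ± 19.2 CPM in WT Ly49C/I+ (SD, n = 6) against 137 ± 49.2 in WT uneducated cells (n = 9), a log2 fold change of -1.32 (edgeR, adjusted p = 0.00559). In NKG2A KO mice it averaged 94.9 ± 11.5 (n = 5) against 146 ± 24.5 CPM (n = 8), a log2 fold change of -0.64 (edgeR, adjusted p = 0.00291). Klra genes are closely similar in sequence, and how their reads were divided was not tested. The 8 NK cell markers summed to at least 10868 CPM in every library, whereas the 5 trophoblast markers never exceeded 3.39 CPM. Macrophage and monocyte markers ranged from 7.95 to 376 CPM and decidual stroma and fibroblast markers from 0 to 891 CPM. The highest stroma and fibroblast sum was 891 CPM in NKG2A+ libraries and at most 95.9 CPM in each other group. Prl8a2 alone reached 889 CPM in NKG2A+ libraries. Col1a1, Col3a1, Dcn and Pdgfra averaged 0.0793, 0, 1.04 and 0.251 CPM there and 0.654, 3.12, 0.942 and 0.452 CPM in WT uneducated libraries. The median of the stroma and fibroblast sum was 7.26 CPM in NKG2A+ and 31.2 CPM in WT uneducated libraries. Its part in the results was not tested. Fewer cells of a type and less RNA per cell cannot be told apart in these bulk samples.

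All 5 genes lie in a cluster of 16 Serpinb genes, 15 of them protein-coding, which spans 1161 kb of chromosome 13 (GRCm38, GENCODE annotation). Serpinb1a occupies positions 32842092 to 32851185 on the minus strand at one end of the cluster, and Serpinb6a occupies 33917918 to 34002794 on the minus strand at the other. Serpinb6b (32965209 to 32979067), Serpinb9 (33003250 to 33017957) and Serpinb9b (33027416 to 33041884) are consecutive genes on the plus strand, separated by 24.2 kb and 9.46 kb. These 3 neighbours averaged 338, 1435 and 93.4 CPM and Serpinb6a 93.7 CPM over all libraries, against 5.09 CPM for Serpinb1a and 4.74 CPM for Serpinb1b, which follows Serpinb9b. Of the 22 other clade B serpins on this and another chromosome, 21 averaged under 1 CPM and 11 had no read in any library. The plot of cluster levels shows the run of 3 expressed neighbours.

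**Figure D1:**
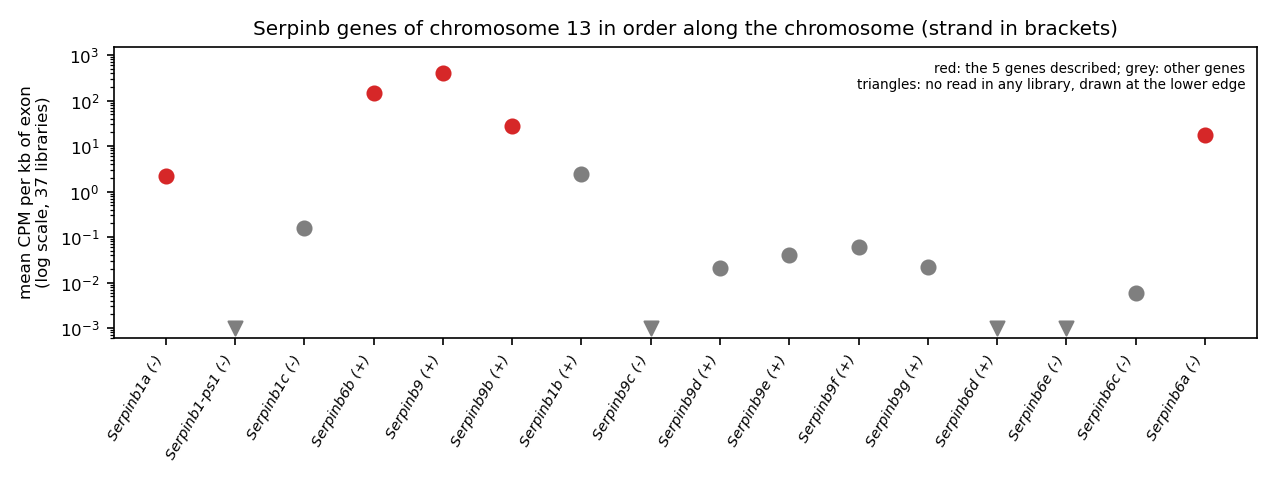
Mean level of each Serpinb gene of chromosome 13 over 37 libraries, in CPM per kb of exon on a log axis, with genes in their order along the chromosome and their strand in brackets. Serpinb6b, Serpinb9 and Serpinb9b stand side by side at 149, 411 and 27.9 CPM per kb, whereas the genes between Serpinb1b and Serpinb6a lie below 0.1 CPM per kb or had no read (triangles).

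The counts of Serpinb6a need the most care among the 5 genes, since 25.1% of the 50-base stretches of its exons also occur in another gene, mostly in the overlapping genes Nqo2, 1110046J04Rik and Ripk1. This share was 5.38% for Serpinb9b, 2.92% for Serpinb6b, 2.81% for Serpinb1a and 0.378% for Serpinb9. Reads of such stretches may be counted for neither gene or for the wrong one, and the sources used here do not state whether the counting used strand. Neither Nqo2 (mean 35.7 CPM) nor Ripk1 (mean 90 CPM) differed between educated and uneducated cells in any of the 3 such comparisons (edgeR, adjusted p of 0.291 or more), and 1110046J04Rik stayed at or below 4.19 CPM.

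RefSeq promoter windows were found for 4 of the 5 genes, all but Serpinb1a, and those of the 3 expressed neighbours are shown because these genes moved in the same direction in NKG2A+ cells. Each sequence runs 5′ to 3′ on GRCm38.p6 and leaves out bases that any annotated exon covers. Those of Serpinb9 and Serpinb9b run up to the annotated RefSeq start, which for Serpinb9 lies inside the Ensembl gene. The RefSeq start of Serpinb6b also lies inside its Ensembl gene. The bases next to that start are exonic and left out, so the Serpinb6b sequence has 198 bases and ends short of it. The windows of Serpinb6a lie largely over annotated exons and are not shown. Capitals mark the match named for each gene in the next paragraph.
Serpinb6b (chr13:32965011-32965208, + strand): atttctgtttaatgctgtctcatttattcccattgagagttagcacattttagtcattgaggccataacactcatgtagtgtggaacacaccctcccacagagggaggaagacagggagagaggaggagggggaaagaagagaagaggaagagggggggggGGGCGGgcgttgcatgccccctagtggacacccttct
Serpinb9 (chr13:33004291-33004540, + strand): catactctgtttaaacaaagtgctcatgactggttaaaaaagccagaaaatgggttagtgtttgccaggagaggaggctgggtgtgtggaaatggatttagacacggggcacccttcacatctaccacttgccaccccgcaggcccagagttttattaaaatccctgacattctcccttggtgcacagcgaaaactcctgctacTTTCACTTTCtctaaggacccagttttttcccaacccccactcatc
Serpinb9b (chr13:33027164-33027413, + strand): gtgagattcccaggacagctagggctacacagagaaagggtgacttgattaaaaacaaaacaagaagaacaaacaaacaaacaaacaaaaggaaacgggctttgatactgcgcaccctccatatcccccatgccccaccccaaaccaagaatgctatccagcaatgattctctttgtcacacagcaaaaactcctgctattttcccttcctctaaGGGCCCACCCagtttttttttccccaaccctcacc

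The windows of Serpinb9 and Serpinb9b could be aligned over 225 bases, of which 154 were identical (68.4%). Their longest shared stretch was aaaactcctgcta (13 bases), which in Serpinb9 lies just before TTTCACTTTC, which on the other strand reads as the core of an interferon-stimulated response element (ISRE), GAAA, any 2 bases, GAAA. That match begins 46 bases before the annotated start of Serpinb9, and 2.98% of 32851 promoters hold one in the same 250 bases. No ISRE core of these letters occurs in the windows of Serpinb9b or Serpinb6b. Serpinb9b holds GGGCCCACCC, which has the loose NF-kB pattern of GGG, any 5 bases, CC on both strands, which overlap (45.8% of promoters), and Serpinb6b holds a GC box, GGGCGG (32.7% of promoters). The letters TTCNNNGAA (STAT), AGGTGT (T-box), TGANTCA (AP-1) and CCAAT matched in none of the 3 windows on either strand, and occur in 7.02%, 11.8%, 6.75% and 33.8% of promoters. The Serpinb6b window has no counterpart of useful length in the others, its longest stretch shared with Serpinb9 being 9 bases. A match is a description of the letters and not a bound site.

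Compared per length of exon, Serpinb9 was the highest of the 5 genes, at 411 ± 78 CPM per kb (SD, n = 37), and ranked 124th among 9278 genes. Serpinb6b followed at 149 ± 40.9 CPM per kb (rank 372), then Serpinb9b at 27.9 ± 13.1 (rank 2178), Serpinb6a at 17.3 ± 5.69 (rank 3163) and Serpinb1a at 2.21 ± 1.48 (rank 8175). Serpinb9 was thus the most abundant and the steadiest between libraries, with a coefficient of variation of 19% in CPM over all libraries, against 27.4% for Serpinb6b, 32.9% for Serpinb6a, 47% for Serpinb9b and 67.1% for Serpinb1a. The ranges of Serpinb9b and Serpinb6a overlapped widely, so their order depends on the group.

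**Figure D2:**
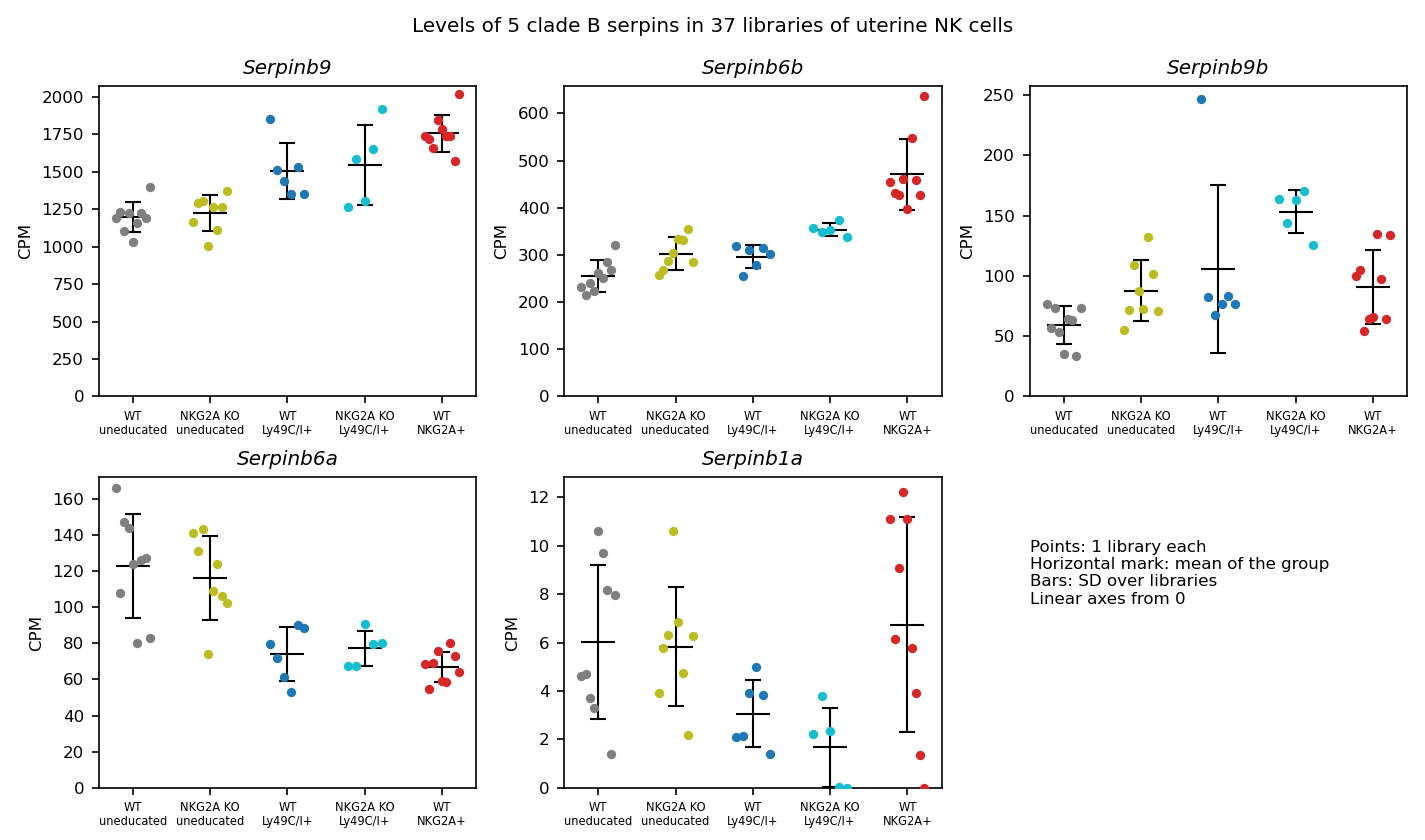
CPM of each gene in each of the 37 libraries (points), by group, with the group mean (horizontal mark) and SD (bars) on linear axes from 0. The 9 NKG2A+ libraries lie above all 9 WT uneducated libraries for Serpinb9 (1571 CPM or more against 1396 or less) and Serpinb6b (397 or more against 320.3 or less) and below them for Serpinb6a (80 or less against 80.3 or more), and 1 WT Ly49C/I+ library stands apart at 247 CPM for Serpinb9b.

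In WT mice, NKG2A+ cells differed from uneducated cells in 4 of the 5 genes. Education was not tested apart from the sorted subset that carries the receptor. In NKG2A+ compared with uneducated WT cells, Serpinb9, Serpinb6b and Serpinb9b rose and Serpinb6a fell, while Serpinb1a had a log2 fold change of 0.17 ± 0.56 (SE). Of the 9339 genes tested, 15% passed the same threshold, an adjusted p of 0.05 in edgeR's quasi-likelihood test with Benjamini-Hochberg adjustment, with 7.47% higher and 7.56% lower. For 3 of the 5 genes the groups of libraries did not overlap, which held for 2.1% of all genes tested (1.25% higher and 0.846% lower). The median log2 fold change of the 5 genes was 0.56, beside 0.01 over all genes.

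Ly49C/I+ cells differed from uneducated cells with fewer calls, among the 4 genes that passed the filter. In WT mice, Serpinb9 rose and Serpinb6a fell, and 9.3% of 9292 genes were called (4.25% higher, 5.05% lower). In NKG2A KO mice, Serpinb9 and Serpinb9b rose and Serpinb6a fell, and 16.3% of 9299 genes were called (7.34% higher, 8.99% lower). In both comparisons the groups overlapped for each of the 4 genes, whereas they did not for 2.46% of all genes in WT and 5.99% in NKG2A KO mice. When NKG2A+ cells were set against Ly49C/I+ cells of WT mice, Serpinb6b alone differed (2.73% of 9308 genes called, 1.31% higher and 1.42% lower), although with an offset for GC content and gene length it no longer did. The NKG2A+ and Ly49C/I+ comparisons in WT mice use the same 9 uneducated libraries, so they are not independent.

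**Figure D3:**
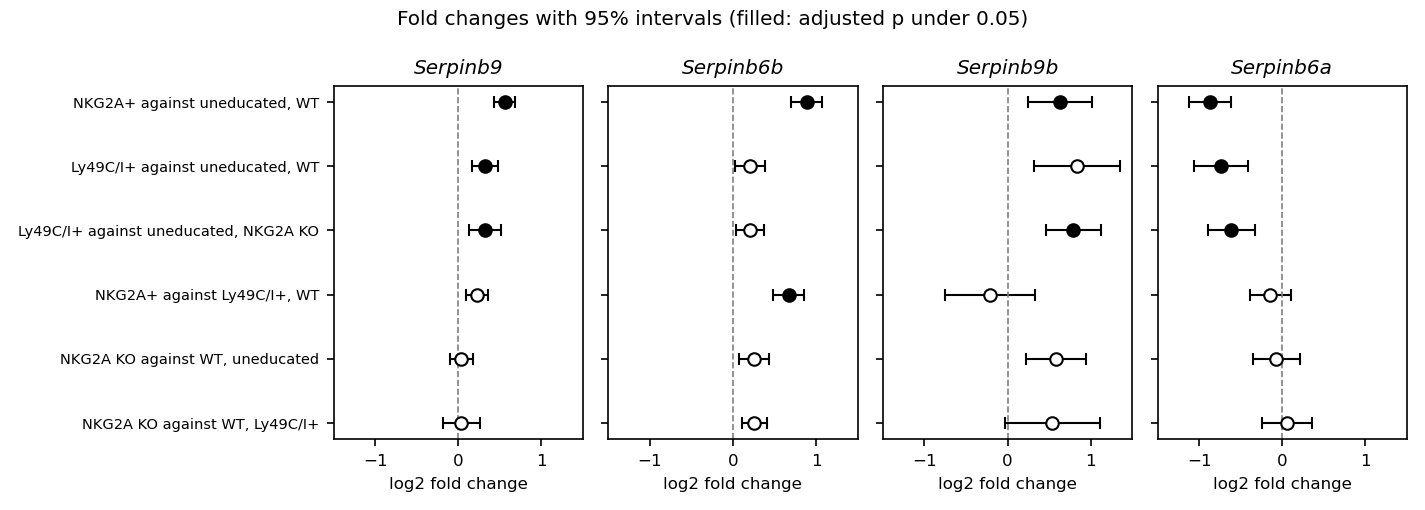
Log2 fold change of each gene that passed the filter in all 6 pairwise comparisons (points, filled where the adjusted p was under 0.05), with 95% intervals. The intervals of Serpinb9 and Serpinb6a lie on opposite sides of 0 in the 3 comparisons of educated with uneducated cells, and Serpinb6b passed the threshold in the 2 comparisons of NKG2A+ cells. Serpinb1a passed the filter in 2 of these comparisons and is not drawn.

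Serpinb9, the inhibitor of granzyme B, lay between 1030.2 and 1396 CPM in WT uneducated libraries (median 1194) and between 1571 and 2021 CPM in NKG2A+ libraries (median 1736). Every NKG2A+ library was above every uneducated library, a log2 fold change of 0.56 ± 0.063 (SE) or a rise of 47.5% (edgeR, adjusted p = 4.61e-06). In WT Ly49C/I+ libraries the level lay between 1349 and 1852 CPM (median 1471). These overlapped the uneducated libraries only at their lower end, and the log2 fold change was 0.32 ± 0.081 (edgeR, adjusted p = 0.0193), a call lost without the filter on low counts (0.32, adjusted p = 0.069).

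In NKG2A KO mice, Serpinb9 ranged from 1002 to 1372 CPM in uneducated libraries (median 1265), and the 5 Ly49C/I+ libraries stood at 1265, 1585, 1303, 1652 and 1919 CPM. The 2 lowest of the 5 lay within the uneducated range. The log2 fold change was 0.32 ± 0.099 (edgeR, adjusted p = 0.0358), which missed the threshold without uneducated library 1, 5 or 6 or Ly49C/I+ library 5, 7 or 8, with an adjusted p of 0.119 without the last, the highest. By mean level the groups ran from NKG2A+ (1757 ± 125 CPM, SD, n = 9) through NKG2A KO Ly49C/I+ (1545 ± 269, n = 5) and WT Ly49C/I+ (1505 ± 186, n = 6) to NKG2A KO uneducated (1223 ± 121, n = 8) and WT uneducated (1195 ± 100.1, n = 9). Neighbours in that order overlapped, and between NKG2A+ and WT Ly49C/I+ cells the log2 difference of 0.22 ± 0.069 missed the threshold (edgeR, adjusted p = 0.0863). It passed with DESeq2 (adjusted p = 0.0341) and, in edgeR, without WT Ly49C/I+ library 1 (0.29, adjusted p = 0.0113).

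Serpinb6b, the inhibitor of granzyme A, lay between 215 and 320.3 CPM in WT uneducated libraries (median 250.1) and between 397 and 637 CPM in NKG2A+ libraries (median 455). The groups did not overlap, and the gap between them was 397 against 320.3 CPM. The log2 fold change of 0.89 ± 0.095, a rise of 85%, was the largest of the 5 genes (edgeR, adjusted p = 2.58e-06) and ranked 233rd from the top of the 9339 genes tested. WT Ly49C/I+ libraries reached 255 to 319 CPM (median 306). They lay wholly within the range of the uneducated libraries, with a log2 difference of 0.21 ± 0.093 (edgeR, adjusted p = 0.177).

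The difference between the educated subsets was therefore tested directly for Serpinb6b. NKG2A+ cells exceeded Ly49C/I+ cells by 0.67 ± 0.095 on the log2 scale (edgeR, adjusted p = 0.00127), with every NKG2A+ library above every Ly49C/I+ library, a separation seen for 1.04% of all genes tested in either direction and for 0.505% in this one. With an offset for GC content and gene length in each library the difference was 0.51 and the adjusted p 0.056. In NKG2A KO mice the uneducated libraries held 257 to 355 CPM (median 296) and the 5 Ly49C/I+ libraries 357, 349, 352, 373 and 338 CPM. These 5 were the most alike of any group for any of the 5 genes, with a coefficient of variation of 3.65%, and their log2 difference from uneducated cells, 0.21 ± 0.083, missed the threshold (edgeR, adjusted p = 0.0985) but passed it with the GC content and length offset (0.32, adjusted p = 0.0355).

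Serpinb9b, the neighbour of Serpinb9, ranged from 33.9 to 76.5 CPM in WT uneducated libraries (median 63.4) and from 54.2 to 135 CPM in NKG2A+ libraries (median 97.7). In 5 of the 9 NKG2A+ libraries the level exceeded all uneducated libraries, and the other 4 lay within their range. This rise of 0.63 ± 0.20 on the log2 scale (edgeR, adjusted p = 0.0319) missed the threshold in 7 of 18 fits that left out 1 library each (uneducated 4 or 8, or NKG2A+ 1, 2, 6, 7 or 9), with adjusted p up to 0.0702. The call was also lost without the filter on low counts (adjusted p = 0.079) and with the GC content and length offset (adjusted p = 0.0548).

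Among WT Ly49C/I+ libraries, library 1 held 247 CPM of Serpinb9b and the other 5 held between 67.2 and 83.6 CPM. The log2 fold change from uneducated cells was 0.83 ± 0.26 with all 6 (edgeR, adjusted p = 0.0548) and 0.39 without library 1 (adjusted p = 0.213). With all 6 it passed the threshold with a replicate block (0.86, adjusted p = 0.0228), with DESeq2 (adjusted p = 0.0194), with the likelihood ratio test (0.0222), with the GC content and length offset (0.0309) and with all 5 groups in 1 fit (0.0122). That library also had the highest Serpinb9 of its group (1852 CPM), and the highest sums of macrophage and monocyte markers (376 CPM, others 12.9 to 238), neutrophil markers (56.5 CPM, others 0 to 13.5), decidual stroma and fibroblast markers (88.4 CPM, others 0.111 to 44.4) and NK cell markers (13268 CPM, others 10868 to 13068). The part of these markers in the result was not tested. In NKG2A KO mice, Serpinb9b ranged from 55 to 132 CPM in uneducated libraries (median 80.3) and stood at 164, 144, 163, 170.4 and 126 CPM in the 5 Ly49C/I+ libraries. Here 4 of the 5 exceeded every uneducated library, with a log2 fold change of 0.79 ± 0.17 (edgeR, adjusted p = 0.00511), which held in all 13 fits that left out 1 library.

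Serpinb6a, an inhibitor of cathepsin G, moved the other way. It lay between 80.3 and 166 CPM in WT uneducated libraries (median 126) and between 54.7 and 80 CPM in NKG2A+ libraries (median 68.7). The groups did not overlap, though only narrowly, with 80 against 80.3 CPM at the border. Its log2 fold change was -0.87 ± 0.13, a fall to 0.548 of the uneducated level (edgeR, adjusted p = 8.34e-05). WT Ly49C/I+ libraries held 53 to 90.3 CPM (median 75.7), and 4 of the 6 were below every uneducated library, with a log2 fold change of -0.74 ± 0.17 (edgeR, adjusted p = 0.0108). NKG2A+ and Ly49C/I+ cells differed by -0.15 ± 0.13 (95% interval -0.39 to 0.10), which missed the threshold (edgeR, adjusted p = 0.582).

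In NKG2A KO mice, Serpinb6a ranged from 74 to 143 CPM in uneducated libraries (median 117), and the 5 Ly49C/I+ libraries held 67.6, 67.6, 90.7, 79.6 and 80.2 CPM. Uneducated library 4, at 74 CPM, was the only one of its group below 102 CPM and made the groups overlap. Here the log2 fold change was -0.61 ± 0.14 (edgeR, adjusted p = 0.00874). The fall of Serpinb6a was called in all 3 comparisons of educated with uneducated cells in every fit that left out 1 library.

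The per-length ratio of Serpinb6b to Serpinb6a combines both movements. Its median was 5.03 in WT uneducated libraries (3.35 to 9.25) and 15.9 in NKG2A+ libraries (13.7 to 23.8). Every NKG2A+ library exceeded all other 28 libraries in this ratio, whose highest value was 12.6. Both genes had already been seen to move in opposite directions in NKG2A+ cells. The separation therefore follows from their choice and is not a further result, and how many other gene pairs separate in this way was not tested. In Ly49C/I+ cells the median was 9.04 in WT (8.14 to 12.6) and 11.2 in NKG2A KO mice (9.29 to 12.6), above the 6.52 of NKG2A KO uneducated libraries (4.36 to 9.84). Over all 37 libraries the levels on the log2(CPM + 1) scale had a Pearson correlation of -0.65 between these paralogues, and of -0.22 once each group's mean was removed. The libraries share their groups and depth, so this is a description only.

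**Figure D4:**
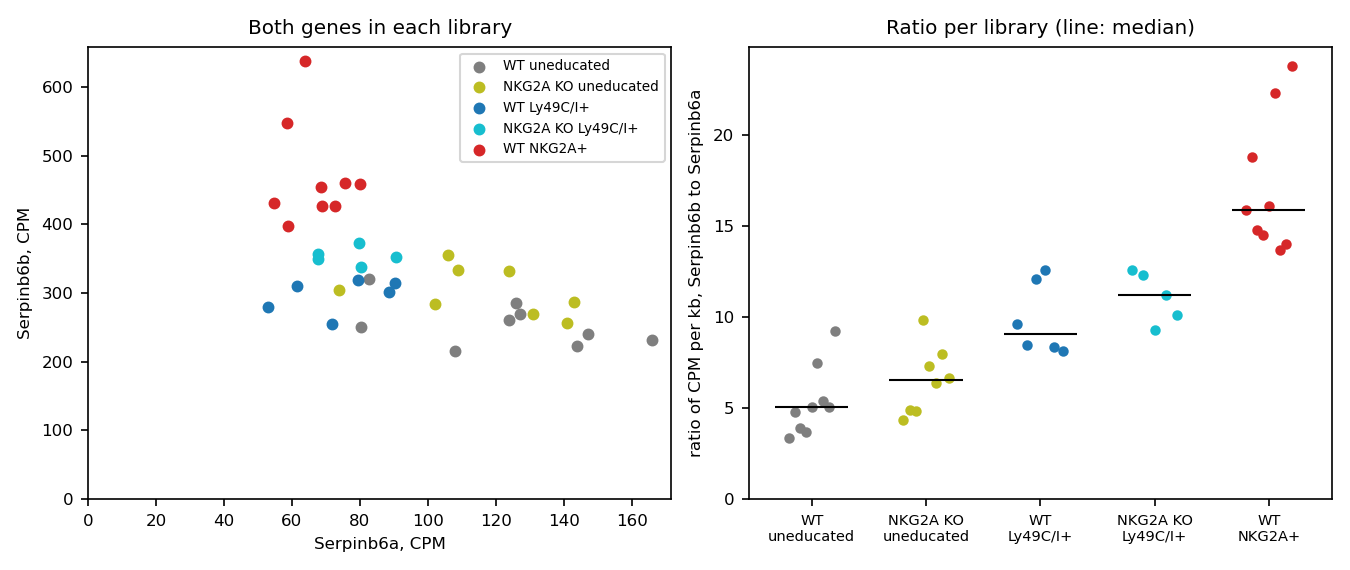
Left, CPM of Serpinb6b against Serpinb6a in each of the 37 libraries, coloured by group, on linear axes from 0. Right, the ratio of both genes in CPM per kb in each library, with the group median as a line. The NKG2A+ libraries lie apart at the upper left and at ratios of 13.7 or more, and the WT uneducated libraries have the lowest median, 5.03.

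Serpinb1a, an inhibitor of neutrophil elastase, proteinase 3 and cathepsin G, was low and close to the filter of 5 CPM. It averaged 6.01 ± 3.16 CPM in WT uneducated (SD, n = 9), 6.74 ± 4.44 in NKG2A+ (n = 9), 3.06 ± 1.38 in WT Ly49C/I+ (n = 6), 5.83 ± 2.46 in NKG2A KO uneducated (n = 8) and 1.68 ± 1.63 CPM in NKG2A KO Ly49C/I+ libraries (n = 5). NKG2A+ library 9 and NKG2A KO Ly49C/I+ library 8 had no Serpinb1a read, where a count of 0 allows up to 0.172 and 0.165 CPM, counting error only. It passed the filter of 5 CPM in at least 50% of the libraries in 2 of the 7 comparisons and was called in neither. The other 4 genes passed in all 7, with at least 530 reads in every library.

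Between NKG2A KO and WT mice, none of the 5 genes was called, in uneducated cells (5 tested) or in Ly49C/I+ cells (4 tested), and neither was any other gene (0% of 9288 and 0% of 9344 in edgeR's quasi-likelihood test). At an unadjusted p under 0.05 these comparisons hold 619 and 1001 genes. With edgeR's likelihood ratio test 1 and 62 genes were called, and with DESeq2 1 and 84, none of them among the 5. Groups did not overlap for 0.0323% and 1.57% of genes. The log2 difference between NKG2A KO and WT cells was 0.04 ± 0.072 for Serpinb9 in uneducated cells (95% interval -0.10 to 0.18) and 0.04 ± 0.11 in Ly49C/I+ cells (-0.18 to 0.26). For Serpinb6a it was -0.07 ± 0.15 (-0.36 to 0.21) and 0.06 ± 0.15 (-0.24 to 0.36). In mice without NKG2A, a sort on NKG2A cannot remove cells that would carry it in WT mice. The groups compared between genotypes may therefore hold different mixtures of cells, which was not tested.

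Serpinb9b and Serpinb6b had the larger estimates between genotypes. Serpinb9b differed by 0.58 ± 0.18 in uneducated cells (edgeR, adjusted p = 0.509) and, among Ly49C/I+ cells, by 0.54 ± 0.29 (edgeR, adjusted p = 0.538). Without WT Ly49C/I+ library 1 the latter became 0.98 with an adjusted p of 0.00625, the only member call between genotypes in any fit. Serpinb6b differed by 0.25 ± 0.090 in uneducated cells (edgeR, adjusted p = 0.633) and, among Ly49C/I+ cells, by 0.26 ± 0.077 (edgeR, adjusted p = 0.286), where all 5 NKG2A KO libraries (338 CPM or more) lay above all 6 WT libraries (319 CPM or less), as did 0.867% of the 9344 genes tested. The Ly49C/I+ effect itself did not differ detectably between genotypes for any of the 4 genes tested, with differences of effect between -0.06 and 0.11 on the log2 scale. The widest 95% interval, that of Serpinb9b, ran from -0.74 to 0.63. Of 9322 genes, 0% were called for this difference, 414 had an unadjusted p under 0.05, the likelihood ratio test called 0 and DESeq2 called 1.

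Granzymes and their granule partners mostly fell in educated cells, but the targets named above moved in both directions in NKG2A+ cells. There Gzmb and Ctsg were lower and Gzma was higher, as was Gzmm, which lay close to the filter of 5 CPM. The list of granzymes and granule partners was chosen for its known biology, with 13 genes. In NKG2A+ cells 12 were tested, of which 8 fell and 2 rose (median log2 fold change -0.68, beside 0.01 over all genes). In WT Ly49C/I+ cells 8 of 10 fell and 0 rose (median -0.70, beside 0 over all genes), and in NKG2A KO Ly49C/I+ cells 7 of 12 fell and 2 rose (median -0.58, beside 0.02 over all genes). Called and lower genes made up 7.56%, 5.05% and 8.99% of all genes in these comparisons.

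Gzmb, the granzyme inhibited by Serpinb9, averaged 8869.8 ± 1762 CPM in WT uneducated cells (SD, n = 9), 5509.9 ± 857 in NKG2A+ (n = 9) and 5979 ± 881 CPM in WT Ly49C/I+ cells (n = 6). Its log2 fold changes were -0.68 ± 0.11 and -0.58 ± 0.13 (edgeR, adjusted p = 0.000184 and 0.00927), and -0.33 ± 0.11 in NKG2A KO Ly49C/I+ cells (edgeR, adjusted p = 0.0426). Prf1, which encodes the pore-forming perforin, fell by 0.69, 0.71 and 0.46 on the log2 scale in the same 3 comparisons. Gzmc fell by 1.20, 0.69 and 0.71. Gzmd, Gzme and Gzmf fell by between 1.84 and 2.73 on the log2 scale, and since these granzymes are closely similar in sequence the counting may have split their reads.

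Gzma, whose product Serpinb6b inhibits, rose with Serpinb6b in NKG2A+ cells. It averaged 1507 ± 446 CPM in WT uneducated cells (SD, n = 9) and 3135 ± 549 CPM in NKG2A+ cells (n = 9), a log2 fold change of 1.06 ± 0.15 (edgeR, adjusted p = 5.04e-05). In WT Ly49C/I+ cells the log2 difference was 0.46 ± 0.22 (edgeR, adjusted p = 0.193) and in NKG2A KO Ly49C/I+ cells 0.72 ± 0.12 (edgeR, adjusted p = 0.00114). The other member that rose in NKG2A+ cells, named after its values were seen, was Gzmm, which encodes the granzyme assigned to Serpinb9b. Gzmm averaged 3.46 ± 2.08 CPM in WT uneducated and 10.3 ± 3.61 CPM in NKG2A+ cells, with a log2 fold change of 1.58 ± 0.43 (edgeR, adjusted p = 0.0164). Its median was 4.36 CPM in WT uneducated and 11.6 CPM in NKG2A+ libraries, so it passed the filter of 5 CPM mainly through NKG2A+ libraries. In WT Ly49C/I+ against uneducated cells Gzmm did not pass the filter. Srgn, the proteoglycan core of the granules, had log2 differences of 0.06, -0.15 and 0.27, of which the last, in NKG2A KO mice, was called.

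Ctsg, which encodes cathepsin G, fell together with its inhibitor Serpinb6a. It averaged 102 ± 53.1 CPM in WT uneducated cells (SD, n = 9), 17 ± 10.3 in NKG2A+ (n = 9) and 11 ± 10 CPM in WT Ly49C/I+ cells (n = 6), and in NKG2A KO mice 67.6 ± 40.3 in uneducated (n = 8) and 2.95 ± 4.33 CPM in Ly49C/I+ cells (n = 5). The log2 fold changes were -2.57 ± 0.38, -3.22 ± 0.57 and -4.53 ± 0.82 (edgeR, adjusted p = 7.71e-05, 0.00297 and 0.00195). In both Ly49C/I+ comparisons the uneducated libraries alone carried Ctsg past the filter of 5 CPM (44 CPM or more in WT, 33.1 or more in NKG2A KO mice). Its median was 9.65 CPM in WT and 0.935 CPM in NKG2A KO Ly49C/I+ libraries, 1 of the latter without a read. The size of the last fold change therefore rests on values near 0. Of the other targets of these serpins, Elane (neutrophil elastase) had a read in 1 of 37 libraries and Prtn3 (proteinase 3) averaged 0.917 CPM. Casp1 and Casp4, inflammatory caspases that SERPINB1 is reported to hold in check, differed from uneducated cells by 0.16 to 0.56 on the log2 scale and were called in none of the 3 comparisons. Markers of other cells were set beside these changes. Mpo, a neutrophil granule enzyme, averaged 13.2 ± 16.8 CPM in WT uneducated and 13.1 ± 13.1 CPM in NKG2A KO uneducated libraries, against 2.18 ± 6.25 CPM in NKG2A+ libraries, 0 in all 6 WT Ly49C/I+ libraries and 0.431 ± 0.963 CPM in NKG2A KO Ly49C/I+ libraries. Prtn3, which is not among the 6 neutrophil markers, averaged 1.65 and 1.86 CPM in the uneducated groups of WT and NKG2A KO mice. It averaged 0.29, 0.247 and 0.0234 CPM in the same 3 educated groups. Of the other neutrophil markers, S100a8, S100a9 and Retnlg went the other way in WT mice, whereas Csf3r was not higher in educated cells. S100a8 averaged 1.53 CPM in WT uneducated, 3.48 in NKG2A+ and 3.66 CPM in WT Ly49C/I+ libraries. In the same order S100a9 averaged 1.03, 4.25 and 5.51, Retnlg 0, 0.475 and 0.414, and Csf3r 2.11, 1.61 and 2.08 CPM. Ly6g averaged 0.00923 CPM or less in each WT group. In NKG2A KO mice S100a8 averaged 1.03 in uneducated and 0.627 CPM in Ly49C/I+ libraries, and S100a9 1.36 and 0.159 CPM. The 6 neutrophil markers together ranged from 0.173 to 63.7 CPM in WT uneducated, 0 to 37.9 in NKG2A+, 0 to 56.5 in WT Ly49C/I+, 3.41 to 38.9 in NKG2A KO uneducated and 0 to 4.33 CPM in NKG2A KO Ly49C/I+ libraries.

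Of the 3 epithelial markers, Epcam fell from 65.5 ± 15.2 CPM in WT uneducated to 26.8 ± 7.91 CPM in NKG2A+ libraries, while Krt8 averaged 4.88 and 5.14 CPM and Krt18 4.6 and 9.3 CPM, and their sum ranged from 46.5 to 127 and from 19.7 to 77.5 CPM. Of the 6 T cell markers, 3 were tested in NKG2A+ cells. Cd3e rose from 4.07 ± 2.3 to 14.5 ± 8.2 CPM and Cd3d from 11.5 ± 3.31 to 26.2 ± 9.58 CPM. Cd3g, the most abundant, averaged 81.6 ± 36.2 and 74.3 ± 21.6 CPM, a log2 difference of -0.13 (edgeR, adjusted p = 0.773). The T cell sum ranged from 41.8 to 152 CPM in WT uneducated and from 68.6 to 183 CPM in NKG2A+ libraries. The part of these markers in the results was not tested.

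**Figure D5:**
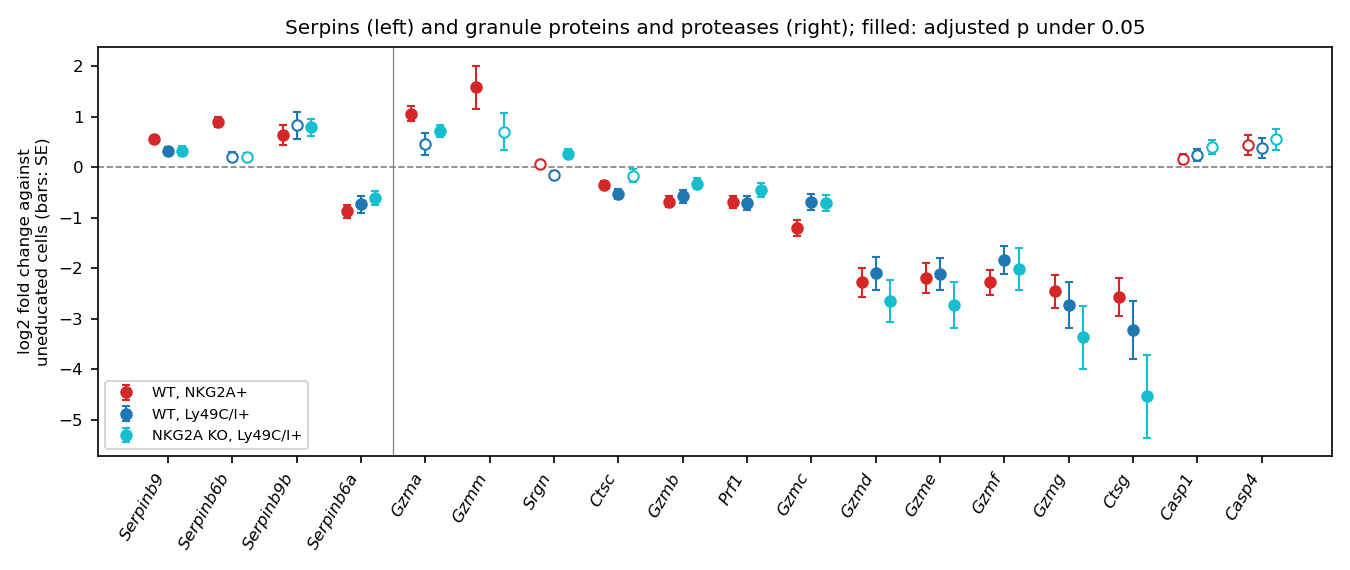
Log2 fold change against uneducated cells (points, filled where the adjusted p was under 0.05; bars, SE) of 4 serpins at the left and of granule proteins and proteases at the right, for NKG2A+ and Ly49C/I+ cells of WT mice and Ly49C/I+ cells of NKG2A KO mice. Gzmd to Gzmg, of which Gzmg is named after its values were seen, and Ctsg lie lowest, down to -4.53 for Ctsg, and Gzma lies above 0 in all 3 comparisons, though not called in WT Ly49C/I+ cells.

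The genes most alike in pattern over the 37 libraries were found by the Pearson correlation of log2(CPM + 1) with each of 9287 genes. For Serpinb6a these were Pglyrp1 (r = 0.905), Gzmc (0.904) and C1qtnf6 (0.898), and within groups the correlations were 0.731, 0.797 and 0.677. For Serpinb6b they were Ifngr1 (0.868), Cytip (0.851) and Ncr1 (0.85), and for Serpinb9 they were Cytip (0.854), Tpm4 (0.837) and Ifngr1 (0.832). Cytip and Ifngr1, which encodes a chain of the interferon-γ receptor, thus appear for both Serpinb9 and Serpinb6b, and within groups these 6 correlations lay between 0.481 and 0.631. Ncr1 encodes NKp46, which was used in the sort, and averaged 606 ± 51.3 CPM in WT uneducated and 941 ± 54 CPM in NKG2A+ cells.

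Serpinb9b followed other genes. Those most alike were S1pr5, a receptor for sphingosine 1-phosphate (r = 0.833), Cma1, a chymase (0.812), and Itgb2, an integrin chain (0.773), with 0.755, 0.762 and 0.711 within groups. WT Ly49C/I+ library 1 was also the highest of its group for each of them, with 133 CPM of S1pr5 (others 18.6 to 63.6), 156 CPM of Cma1 (others 34.4 to 89.1) and 1121 CPM of Itgb2 (others 865 to 953). Without that library the correlations were 0.841, 0.805 and 0.808 over 36 libraries. Serpinb9 and Serpinb9b, though neighbours, correlated at 0.43 over all libraries and at 0.30 within groups, whereas Serpinb9 and Serpinb6b correlated at 0.74 and 0.22. These are descriptions over libraries that share groups, sorting and depth.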

How the data were processed

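Full-length cDNA of sorted uNK cells (SMART-Seq) was made into Nextera XT libraries. The authors trimmed reads with Trim Galore 0.5.0, mapped them with STAR 2.7.1 to GRCm38 and deposited raw counts of reads per Ensembl gene and library. The sources used here do not name the counting program or its strand setting. The 5 summary lines of each file name no gene and were left out of library sizes (reads on no gene 2.69% to 6.83%, ambiguous 4.04% to 4.6%, not unique 11.3% to 13.8%). Reads carry no molecular identifiers, and floors from counts reflect counting error alone.

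Here, edgeR 4.0.16 (R 4.3.3) was run on the counts of the groups compared, for genes reaching 5 CPM in 50% or more of their libraries, as in the authors' filter, with TMM factors, the quasi-likelihood test, Benjamini-Hochberg adjustment over all genes tested and a threshold of 0.05. SEs derive from the test statistic, and 95% intervals are normal. Alternatives were DESeq2 1.42.0, the likelihood ratio test, RLE factors, other filters, a GC content and length offset (which the authors' own tables use), all 5 groups in 1 fit, a replicate block and leaving out libraries. The fits were tested on simulated data. The numbers 1, 2, 4, 5, 7 and 8 of the WT Ly49C/I+ libraries follow their description lines, which differ from some titles. WT uneducated library 5 repeats the description of library 4, and a fit without libraries 5 was run. No libraries held identical counts. A further marker of the sort, and the marker list that holds it, are not reported here.

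The 5 genes and all gene lists were chosen with earlier results of these data known, and the promoter motifs with the sequences in view. The 5 genes are named throughout, and from each list at most 8 genes by highest mean CPM, except where a gene is said to be named after its values were seen. Positions and exon lengths come from GENCODE M21 and promoters from RefSeq.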

Additional observations from a re-analysis of the deposited data

Results flagged for a closer look

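In 25 groups of 5 to 9 libraries, Dixon's criterion found 2 values that stand apart from the rest of their group, and chance gives about 1 in 20. Both were in WT Ly49C/I+ library 1, with 1852 CPM of Serpinb9 (next highest 1534) and 247 CPM of Serpinb9b (next highest 83.6). The log2 fold change of Serpinb9 in WT Ly49C/I+ cells is 0.32 with this library and 0.27 without it, and that of Serpinb9b is 0.83 with it and 0.39 without it. Its marker sums are given with the Serpinb9b values, and their part was not tested.

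The response of Serpinb6b differed between the educated subsets of WT mice, by a direct test of NKG2A+ against Ly49C/I+ cells, with a log2 difference of 0.669 (edgeR quasi-likelihood test, adjusted p = 0.00127). All 9 NKG2A+ libraries were higher than all 6 Ly49C/I+ libraries. The difference was 0.51 with an adjusted p of 0.056 under the GC content and length offset, and the adjusted p was between 0.000372 and 0.00725 when any 1 library was left out.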

How the results depend on the processing

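Of 697 refitted log2 fold changes of the 5 genes, 637 kept direction and side of the threshold, 19 lost the call, 10 gained it and 31 changed sign. No call of a gene changed sign. The count of called serpins in WT Ly49C/I+ cells was 1 without a CPM filter, where Serpinb9 had an adjusted p of 0.069. In NKG2A+ against Ly49C/I+ cells it was 2 with DESeq2, 0 with the GC content and length offset and between 1 and 2 with 1 library left out. The count of 2 with 1 library left out came without WT Ly49C/I+ library 1. For NKG2A KO against WT Ly49C/I+ cells the count was 1 without that library and 0 in every other fit. Serpinb9b in WT Ly49C/I+ cells passed under 5 other fits, given with its values, and without WT Ly49C/I+ library 4 (adjusted p = 0.0466). Serpinb9 in NKG2A KO Ly49C/I+ cells was lost without a CPM filter (0.0949), with a filter of 1 CPM (0.0569) and in 6 of 13 fits without 1 library.

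Over all genes, calls in WT Ly49C/I+ cells went from 864 to 451 without a CPM filter, to 1528 with all 5 groups in 1 fit and to between 461 and 1234 with 1 library left out. In NKG2A+ against Ly49C/I+ cells they went from 254 to 442 (likelihood ratio test), 558 (DESeq2), 104 (no CPM filter), 115 (GC content and length offset) and 147 to 306 (1 library left out). In NKG2A KO Ly49C/I+ cells they went from 1519 to 889 (no CPM filter) and 967 to 1763 (1 library left out). Between genotypes, 0 became 1 by the likelihood ratio test and 1 by DESeq2 in uneducated cells, and 62, 84, 18 (all 5 groups) and 0 to 15 (1 library left out) in Ly49C/I+ cells. DESeq2 gave 1 for the interaction. The cause of these shifts was not tested.

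The values that changed sign were not called in either fit. Serpinb1a in NKG2A+ cells was -0.013 with the block, and between genotypes in uneducated cells 0.13 with the block, 0.099 without libraries 5 and -0.219 to 0.099 with 1 library left out. Serpinb6a between genotypes ran from -0.131 to 0.002 in uneducated and from -0.026 to 0.112 in Ly49C/I+ cells with 1 library left out. Serpinb9 between genotypes in Ly49C/I+ cells was -0.077 with the GC content and length offset and -0.059 to 0.098 with 1 library left out. Serpinb9b in NKG2A+ against Ly49C/I+ cells ran from -0.312 to 0.236, the latter without WT Ly49C/I+ library 1. In the interaction, Serpinb6b was 0.003 with all 5 groups, and Serpinb9 was 0.024 and Serpinb9b 0.03 without libraries 5. For the interaction only the 11 Ly49C/I+ libraries were left out in turn, and not the uneducated ones. The ranges were then -0.054 to 0.02 for Serpinb6b, -0.106 to 0.055 for Serpinb9 and -0.157 to 0.394 for Serpinb9b, the last value without WT Ly49C/I+ library 1.

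The labels do not say that a replicate number marks 1 mouse. Same-numbered libraries of 1 genotype had median correlations of their deviations from group means between 0.042 and 0.126. In none of these comparisons were all pairs over 0.1, so the numbers were not taken as pairs. Between genotypes a shared number cannot mark 1 mouse, so the medians there (0.01 and 0.021) and the fits with a replicate block say nothing of pairing. In WT mice, 5 of 9, 4 of 6 and 2 of 6 pairs were over 0.1 (NKG2A+ against uneducated, Ly49C/I+ against uneducated, NKG2A+ against Ly49C/I+), and 6 of 9, 5 of 6 and 6 of 6 libraries correlated best with their own number, a hint of pairing from the data and not from the labels. In the same order the median was 0.101, 0.126 and 0.083 for same numbers and 0.004, -0.022 and -0.011 for other numbers. The main fits treat the libraries as unpaired. A replicate block moved the calls over all genes in NKG2A KO Ly49C/I+ cells from 1519 to 759, and among the calls of the 5 genes it changed only that of Serpinb9b in WT Ly49C/I+ cells. Depth limits what can be said of Serpinb1a, which had 0 to 206 reads per library.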

Other observations

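The ratio of Serpinb9 to Gzmb, both in CPM per kb, was highest in NKG2A+ cells. Its median was 0.058 in WT uneducated libraries (0.0388 to 0.0814) and 0.141 in NKG2A+ libraries (0.0935 to 0.156), without overlap. It was 0.106 in WT Ly49C/I+ libraries (0.0864 to 0.125), also above all WT uneducated libraries, and in NKG2A KO mice it was 0.067 in uneducated (0.0535 to 0.0831) and 0.0933 in Ly49C/I+ libraries (0.0805 to 0.154). Transcript of the protease thus exceeded that of its inhibitor per length of exon in every library, and the ratio says nothing of the proteins. Serpinb9 and Gzmb had already been seen to move in opposite directions, so the separation of groups follows from their choice. How many other gene pairs separate in this way was not tested.

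Protease inhibitors of other families were followed as well. Of 5 such genes, 2 rose and 2 fell in NKG2A+ cells, where 7.47% of all genes were called higher and 7.56% lower. Serpina3f and Serpina3g, clade A serpins, had log2 fold changes of 1.42 ± 0.22 and 0.48 ± 0.11 (edgeR, adjusted p = 0.000146 and 0.00468). Cst7, which encodes cystatin F, an inhibitor of the cathepsins that activate granzymes, fell from 616 ± 120.2 CPM in WT uneducated (SD, n = 9) to 403 ± 48 CPM in NKG2A+ cells (n = 9), and Cstb, a cystatin of the cytosol, had an adjusted p of 0.0498 (edgeR). In Ly49C/I+ cells 1 of the 5, Serpina3g, rose in WT mice, and in NKG2A KO mice Serpina3g rose and Cstb fell (all genes, 4.25% higher and 5.05% lower in WT, 7.34% and 8.99% in NKG2A KO mice). Cst7 was lower in NKG2A+ than in Ly49C/I+ cells of WT mice by a log2 difference of -0.51 ± 0.086 (edgeR, adjusted p = 0.00444).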
